A study of Mus musculus with 64 samples.

Results

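The voltage-gated calcium and sodium channel genes were followed in hippocampal RNA of 8 inbred mouse strains. Members were the protein-coding genes whose symbol begins with Cacna, Cacnb or Cacng and a number, the alpha2delta genes included, or has the form of a pore or beta subunit gene of the sodium channels (Scn, a number, then a or b). The rule found 40 genes among the 32227 of the count table. They were 10 pore genes of calcium channels (Cacna1), 4 alpha2delta genes (Cacna2d), 4 calcium channel beta genes (Cacnb), 8 gamma genes (Cacng), 10 pore genes of sodium channels and 4 sodium channel beta genes. Together they held 0.437% of all counts. The 64 bulk RNA-seq libraries came from the hippocampus of PWK/PhJ, CAST/EiJ, WSB/EiJ, NZO/HlLtJ, A/J, NOD/ShiLtJ, 129S1/SvImJ and C57BL/6J mice, with 4 libraries of females and 4 of males per strain. PWK/PhJ, CAST/EiJ and WSB/EiJ are wild-derived, and the other strains are classical laboratory strains. Strain names carry a slash even where a label has another character. No treatment is named in the labels and no age was found in them. The labels do not say whether each library is 1 animal, so p-values measure the spread between these libraries.

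Voltage-gated calcium channels open when a neuron is depolarised and let in calcium, which triggers transmitter release at terminals and signalling to the nucleus in dendrites. Most of these channels have a pore-forming alpha1 protein, a cytoplasmic beta subunit and an extracellular alpha2delta subunit. The beta and alpha2delta subunits bring the pore to the membrane and tune its gating. Sodium channels are a single pore-forming alpha protein with membrane-spanning beta subunits, and they generate the action potential at the axon initial segment. Most gamma genes of the brain are known less for calcium channels than as TARPs, auxiliary proteins that carry AMPA-type glutamate receptors to the synapse.

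Total counts ran from 16607602 to 27759221 per library, with a median of 22176356.5. Markers of hippocampal neurons were well represented, with summed levels of 702.4 to 1364 CPM (counts scaled to library size) over 8 CA1 markers and 414.8 to 694.9 CPM over 9 dentate granule markers. Choroid plexus markers, which mark tissue next to the hippocampus, summed to anything from 130.5 to 6843 CPM. In 4 libraries, genes with long transcripts were low relative to genes with short ones. They were A/J male 2, 129S1/SvImJ female 1, WSB/EiJ female 1 and C57BL/6J male 4, whose long-gene level (median log2 deviation of genes with at least 8 kb of exon less that of genes under 4 kb) was below -0.3. The other libraries lay between -0.195 and 0.152. The numbers in the sample titles are 639 to 643 for CAST/EiJ females and 311 to 462 elsewhere, so this number block cannot be told apart from sex in that strain.

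Levels per length spanned several orders of magnitude. Among the sodium beta genes, Scn3b had 60.2 CPM per kb of exon (mean of 64 libraries), Scn2b had 59.9 CPM per kb and Scn4b had 6.12 CPM per kb. Among sodium pores, Scn2a (27.1 CPM per kb), Scn8a (24.3) and Scn1a (10.2) led. These 3 genes are the main sodium channels of the adult brain. Scn3a, best known from the developing brain, had 3.95 CPM per kb. The 3 pores Scn7a, Scn9a and Scn11a had 0.026 to 0.495 CPM per kb. Among calcium pores the P/Q-type gene Cacna1a (13.3 CPM per kb), the R-type gene Cacna1e (13.2), the N-type gene Cacna1b (12.7) and the T-type gene Cacna1h (12.2) were close together. The T-type genes Cacna1i (8.45) and Cacna1g (5.84) and the L-type genes Cacna1c (5.46) and Cacna1d (3.43) had lower levels per kb. The skeletal muscle L-type gene Cacna1s had 0.107 CPM per kb. Cacna2d1 (17.5 CPM per kb) and Cacna2d3 (13.3) led the alpha2delta genes, Cacnb3 (57.1) and Cacnb1 (32.2) the calcium beta genes, and Cacng7 (50.06) and Cacng8 (50.01) the gamma genes. Cacng8 encodes the TARP that is most typical of hippocampal pyramidal neurons.

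**Figure D1:**
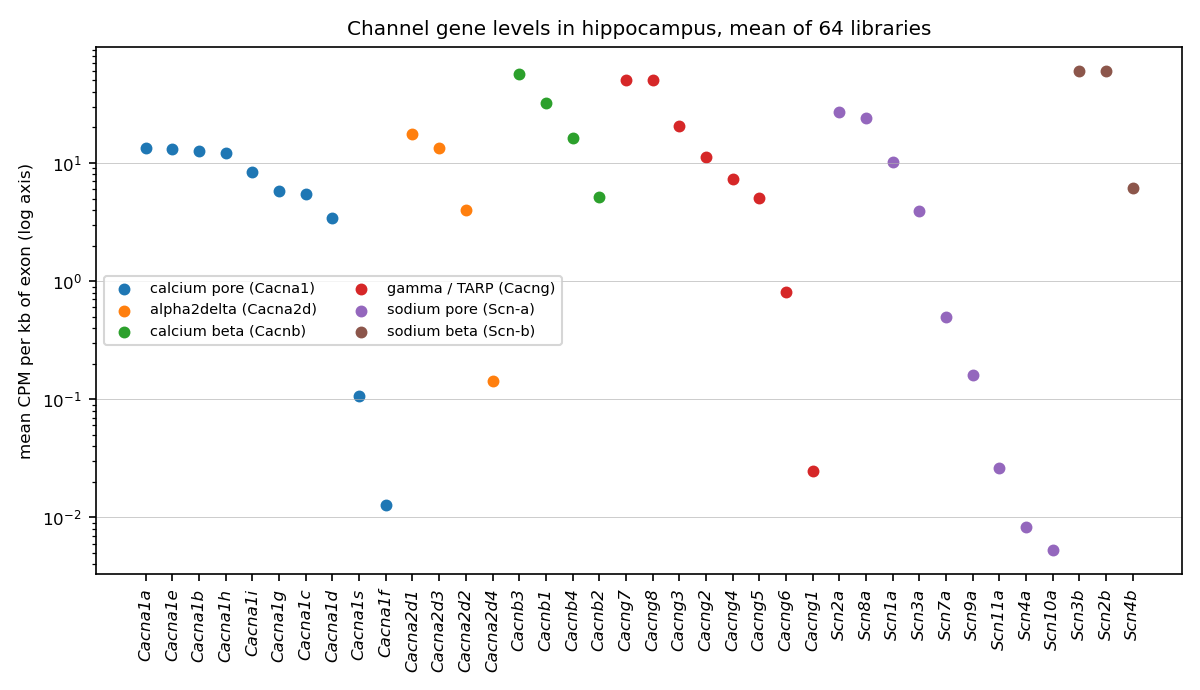
Mean level of 38 channel genes in CPM per kb of exon (log axis, mean of 64 libraries), grouped by family and ordered by level within a family. Levels run from 0.00528 CPM per kb for Scn10a to 60.2 CPM per kb for Scn3b.

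Counts were too low to test 4 members. Cacna1f, the retinal L-type pore, had 164 counts over all libraries and a count in 51 of them. Scn4a, the skeletal muscle pore, had 84 counts, Scn10a, a pore of pain-sensing neurons, had 60, and Cacng1, the gamma subunit of the skeletal muscle channel, had 44. The 36 other members passed the filter on low counts. Since a gene can pass that filter through a strain in which it is high, values are also given for the low members below.

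Strain differences were common but mostly small in these genes. Below, levels are CPM, ± is the SD over the 8 libraries of a strain, the other strains are 56 libraries, and fold changes are on the log2 scale and from edgeR. By edgeR's F test over strains, 33 of the 36 tested members differed among strains at an adjusted p below 0.05, which is 91.7% of them, against 89.2% of all 17382 genes tested. When the range of the 8 strain means also had to reach 1 on the log2 scale, 8 of 36 members (22.2%) passed, against 26.3% of all genes. The median range was 0.46 over the tested members and 0.54 over all genes. The 8 members included Cacng6, Scn11a, Cacna2d4, Scn7a, Cacng5, Scn4b and Cacna1s. Just under the limit lay Scn3b with a range of 0.87, Scn9a with 0.85 and Cacna1e with 0.81, and just over it Cacna1s with 1.07. The 3 members without a strain difference at that threshold were Cacnb4 (adjusted p = 0.240), Cacnb3 (0.0645) and Cacna2d2 (0.0535). These calls depended on the model: with a covariate for thalamus and habenula markers Cacna2d2 (adjusted p = 8.33e-06) and Cacnb3 (0.00376) passed, and with one for the long-gene level of the library Cacnb4 (0.000632) and Cacnb3 (0.0241) passed. Of the 11 thalamus and habenula markers, 4 (36.4%) themselves had a range of at least 1, against 26.3% of all genes. A covariate made from them can therefore also shift strain means. Over all 28 pairs of strains, members passed with a fold of at least 1 on the log2 scale 46 times (4.56% of their tests), against 7.87% of the tests of all genes. A pair had 0 to 3 such members. Scn11a, which passed the count filter only through PWK/PhJ, is 1 of the 8 members and gave 16 of the 46.

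Against the mean of the other 7 strains, with a fold of at least 1 on the log2 scale, there were 5 calls. Cacng6 was higher in 129S1/SvImJ (2.78% of members, 2.12% of all genes). Scn11a was higher in PWK/PhJ (2.78%, against 3.75%), the strain through which alone it passed the count filter. The call of Scn11a was therefore fixed in advance and is no evidence of a strain difference. Cacna2d4 and Cacng6 were lower in PWK/PhJ (5.56%, against 5.6%), and Scn7a was lower in CAST/EiJ (2.78%, against 5.22%). These shares lie near or under the background.

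PWK/PhJ had the most members called higher. At an adjusted p below 0.05 and any fold, 19 of 36 members (52.8%) were higher in PWK/PhJ than in the mean of the other 7 strains, against 28.9% of all genes, and 6 (16.7%) were lower, against 28.8%. The 19 were 8 of 9 tested calcium pores, 4 of 8 sodium pores, 3 of 7 gamma genes, 2 of 4 alpha2delta genes, 1 of 4 calcium beta genes and 1 of 4 sodium beta genes. The sodium pores include Scn11a, which was bound to be high in PWK/PhJ among tested genes. PWK/PhJ had the highest strain mean for 16 of the 36 members and for 20.3% of all genes. The median log2 fold change of the members in PWK/PhJ was 0.16, against -0.003 over all genes. Pan-neuronal markers moved with this result: 7 of 10 were higher in PWK/PhJ and 1 was lower, and their summed level was 7870 to 8936 CPM in PWK/PhJ, against 6530 to 8719 CPM in the other strains. All 12 oligodendrocyte markers were lower in PWK/PhJ, with a summed level of 2882 to 3818 CPM there and 3035 to 6776 CPM in the other strains. In bulk tissue, fewer cells of a type and less RNA per cell cannot be told apart, and the part of these cell types in the channel levels was not tested.

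A/J lay at the low end. There 13 of 36 members (36.1%) were lower than in the other strains at any fold, against 14.7% of all genes, and 3 (8.33%) were higher, against 19.1%. A/J had the lowest mean for 12 members and for 8.19% of all genes. The 13 included the calcium pores Cacna1a, Cacna1c, Cacna1e and Cacna1i, the sodium pores Scn1a, Scn7a and Scn8a, and the TARP genes Cacng2, Cacng4 and Cacng8. This count rested in part on A/J male 2, the library lowest in long genes: without it 6 of the 13 remained, among them Cacna1a, Cacna1e, Cacng2, Cacng8 and Scn7a. Without all 4 libraries low in long genes 12 of the 13 remained, and with the long-gene level as a covariate all 13 did. It also depended on the strains compared, since the mean of the others includes PWK/PhJ. Without CAST/EiJ and PWK/PhJ, 7 members were lower in A/J. For the fits without libraries or strains the share of all genes is not given, so these counts have no background. Cacna1i in A/J was level with WSB/EiJ, the next strain below (log2 difference 0.005, adjusted p = 0.974, edgeR). Markers of CA1 neurons were also low in A/J, where 5 of 8 were lower and none was higher, with a summed level of 726.5 to 855.5 CPM in A/J and 702.4 to 1364 CPM in the other strains. In NZO/HlLtJ 6 of these 8 were lower and 1 was higher (summed 702.4 to 812.8 CPM). There 16.7% of members were lower, against 16.2% of all genes. Of 10 pan-neuronal markers, 0 were higher in A/J and 1 was lower. Of 12 oligodendrocyte markers 6 were higher in A/J and 1 was lower (summed 3979 to 5961 CPM in A/J, 2882 to 6776 CPM in the other strains). Their part in the result was not tested.

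At any fold CAST/EiJ had 11 members higher (30.6%, against 28.3% of all genes) and 5 lower (13.9%, against 28.5%). WSB/EiJ had 9 higher (25%, against 22.3%) and 5 lower (13.9%, against 20%). NZO/HlLtJ had 5 higher (13.9%, against 21.8%) and 6 lower (16.7%, against 16.2%). NOD/ShiLtJ had 7 higher (19.4%, against 21.4%) and 2 lower (5.56%, against 18.2%). In 129S1/SvImJ 3 were higher (8.33%, against 17.6%) and 5 lower (13.9%, against 14.7%). In C57BL/6J 3 were higher (8.33%, against 20.4%) and 11 lower (30.6%, against 17.6%), among them Cacna1g, Cacna1h, Cacng4, Cacng5 and Scn3b. Markers of several cell types were higher in C57BL/6J. All 12 oligodendrocyte markers were, with a summed level of 3978 to 5982 CPM in C57BL/6J and 2882 to 6776 CPM in the other strains. So were 10 of 12 endothelial and mural markers (summed 373.9 to 452.1 CPM in C57BL/6J, 283.2 to 480.0 CPM in the other strains). Of 9 dentate granule markers 6 were higher and 1 was lower (summed 591.3 to 672.8 CPM in C57BL/6J, 414.8 to 694.9 CPM in the other strains). Strains differed in how such markers and the members went together. In NOD/ShiLtJ, with 2 members lower, 11 of 12 oligodendrocyte markers were higher and 0 lower. In CAST/EiJ, with 11 members higher, 9 of 12 oligodendrocyte markers were lower and 0 higher. There 5 of 10 pan-neuronal markers were lower and 2 higher. The part of these cell types in the 11 lower members of C57BL/6J was not tested.

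**Figure D2:**
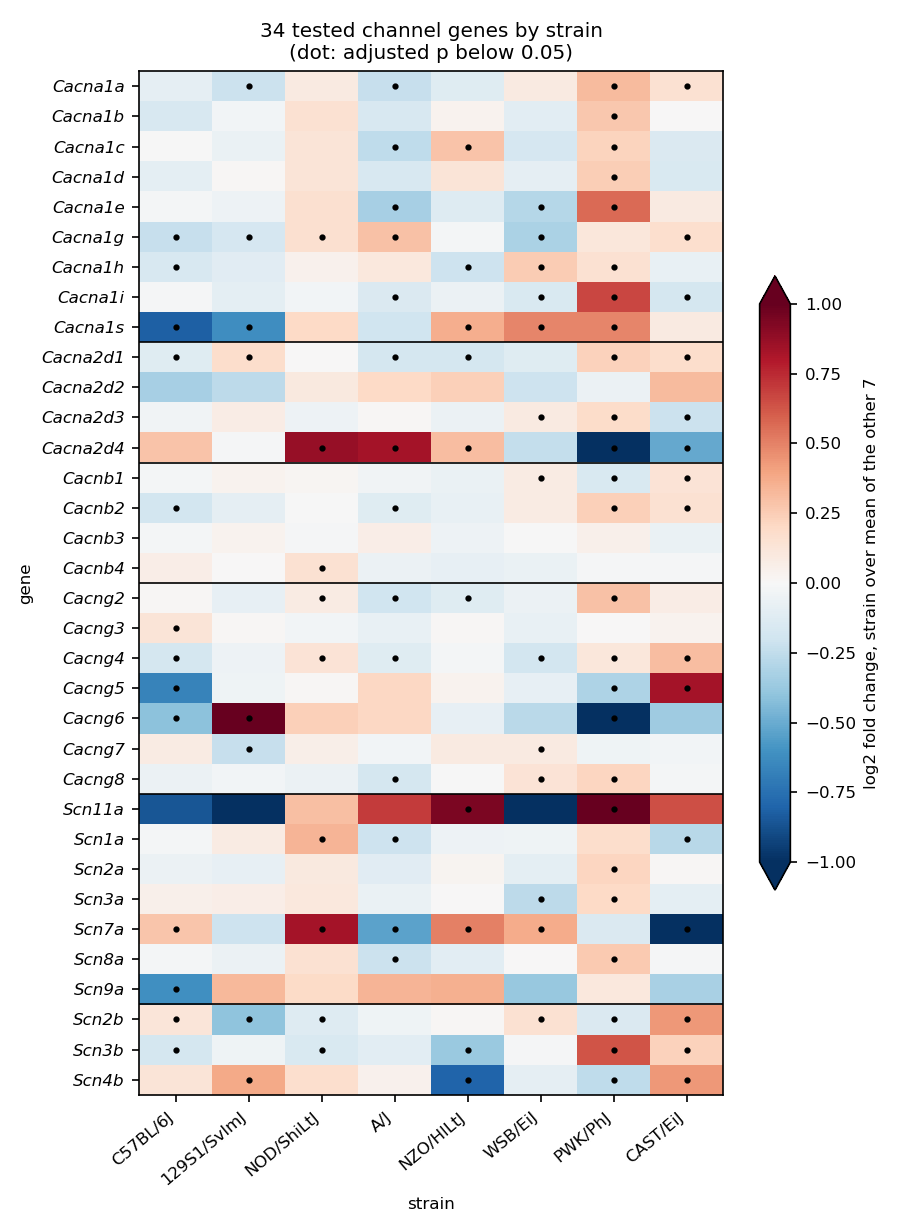
Log2 fold change of 34 tested channel genes (rows, by family) in each strain over the mean of the other 7 (columns), with colours saturating at -1 and 1 and a dot where the adjusted p of edgeR's test is below 0.05. The PWK/PhJ column holds 19 higher and 6 lower calls.

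Among the calcium pores, the largest strain differences of abundant genes were those of Cacna1i and Cacna1e in PWK/PhJ. Cacna1i, a T-type pore that opens at low voltage and supports burst firing, had a lowest, median and highest level of 105.6, 123.2 and 140.0 CPM in PWK/PhJ, against 56.5, 78.3 and 92.3 CPM in the other strains. All 8 PWK/PhJ libraries lay above all 56 others. Its log2 fold change was 0.67 (SE 0.051, adjusted p = 5.98e-17, edgeR). Below PWK/PhJ, the other 7 strains followed each other without a step that passed the test. Cacna1e, the R-type pore of dendrites and spines, had 384.5, 462.1 and 527.7 CPM in PWK/PhJ, against 139.7, 329.9 and 395.1 CPM in the other strains. In PWK/PhJ 7 of 8 libraries lay above all others, and the log2 fold change was 0.57 (SE 0.081, adjusted p = 3.46e-08). PWK/PhJ and NOD/ShiLtJ, the next strain in the order, differed by 0.36 (adjusted p = 0.0063).

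The promoter windows of these genes are shown because both had their highest level in PWK/PhJ. Windows run from 250 bases before to 50 bases after the start, are from RefSeq on GRCm38.p6 and are of the reference genome, not of PWK/PhJ, whose sequence was not used here. A window was found for 30 of the 40 members. They are printed from 5′ to 3′ of the gene, and capitals mark each CG dinucleotide, which reads the same on both strands. Cacna1e (chr1:154725871-154726170, minus strand) held 11 of them and Cacna1i (chr15:80286988-80287287, plus strand) held 23. The median over all 32851 windows was 7, and 41.4% of them held at least 11 and 21.5% at least 23.
Cacna1e: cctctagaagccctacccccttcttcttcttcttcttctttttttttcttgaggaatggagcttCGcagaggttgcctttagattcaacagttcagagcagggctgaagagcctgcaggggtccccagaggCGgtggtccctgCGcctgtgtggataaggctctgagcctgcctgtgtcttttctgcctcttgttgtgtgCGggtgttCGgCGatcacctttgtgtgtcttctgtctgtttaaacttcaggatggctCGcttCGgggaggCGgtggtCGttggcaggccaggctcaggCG
Cacna1i: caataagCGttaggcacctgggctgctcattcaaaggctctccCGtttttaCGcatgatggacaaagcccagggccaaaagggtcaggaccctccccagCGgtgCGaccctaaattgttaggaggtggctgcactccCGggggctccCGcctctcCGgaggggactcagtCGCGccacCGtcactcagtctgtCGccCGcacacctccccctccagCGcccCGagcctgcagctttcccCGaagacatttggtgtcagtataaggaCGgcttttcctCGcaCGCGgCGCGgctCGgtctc

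The other abundant calcium pores differed less. Cacna1a, which carries transmitter release at most central synapses, averaged 182.8 ± 15.9 CPM in PWK/PhJ and 147.2 CPM in the other strains (a difference of 0.32 on the log2 scale, adjusted p = 6.73e-07). In A/J it averaged 131.3 ± 17.1 CPM, against 154.6 CPM in the other strains (-0.23, adjusted p = 0.000736). Cacna1g, another T-type pore, had a different order, with 70.1 ± 8.3 CPM in A/J against 57.6 CPM in the other strains (0.29, adjusted p = 0.000139), and 48.5 ± 3.8 CPM in WSB/EiJ against 60.7 CPM in the other strains (-0.31, adjusted p = 7.36e-05). It was the only tested calcium pore that was not called higher in PWK/PhJ, where it averaged 62.9 CPM, against 58.7 CPM in the other strains. Cacna1b, the N-type pore of presynaptic terminals, averaged 147.5 ± 12.01 CPM in PWK/PhJ, against 122.9 CPM in the other strains (0.27, adjusted p = 0.00121). Cacna1d, an L-type pore that opens at lower voltage, averaged 49.8 ± 4.86 CPM in PWK/PhJ, against 42.3 CPM in the other strains (0.24, adjusted p = 0.00277). Chdh, which overlaps 4.67% of the exon bases of Cacna1d on the other strand, ran the other way, with 2.78 CPM in PWK/PhJ and 5.37 to 6.46 CPM in the other strains. Cacna1h averaged 138.3 ± 15.96 CPM in WSB/EiJ, against 116.5 CPM in the other strains (0.25, adjusted p = 0.000603). Cacna1c, the main L-type pore of the brain, had its highest mean in NZO/HlLtJ, at 136.7 CPM against 112.7 CPM in the other strains (0.29, adjusted p = 0.00396). Cacna1s was low everywhere, with 1000 counts in all 64 libraries. Its lowest, median and highest levels were 0.155, 0.451 and 0.650 CPM in C57BL/6J, against 0.221, 0.738 and 1.14 CPM in the other strains, so the ranges overlapped. The log2 fold change in C57BL/6J was -0.82 (SE 0.156, adjusted p = 2.2e-05), and in 129S1/SvImJ it was -0.62 (adjusted p = 0.000821). Without C57BL/6J male 1 the range of strain means of Cacna1s was 0.93, under the limit of 1. An antisense gene, Gm37759, shares 19.99% of the exon bases of Cacna1s, and it had 0.0382 CPM.

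Among the alpha2delta genes, Cacna2d4, known from the retina, varied most. It had a lowest, median and highest level of 0.235, 0.470 and 0.908 CPM in PWK/PhJ, against 0.354, 1.34 and 2.94 CPM in the other strains. The ranges overlapped, and the log2 fold change was -1.54 (SE 0.163, adjusted p = 3.99e-12, edgeR). The highest levels were in NOD/ShiLtJ, with 1.24, 2.01 and 2.94 CPM, and in A/J, with 1.70, 2.03 and 2.30 CPM. Between these strains no difference passed the test (log2 difference 0.04, adjusted p = 0.884), and both were higher than the mean of the other strains, by 0.87 in NOD/ShiLtJ (adjusted p = 1.43e-08) and by 0.83 in A/J (adjusted p = 7.87e-08). CAST/EiJ lay next above PWK/PhJ and differed from it by 0.91 (adjusted p = 0.000188). Cacna2d1, the gabapentin-binding subunit, averaged 249.3 CPM in PWK/PhJ, against 213.2 CPM in the other strains (0.23, adjusted p = 6.66e-05). Cacna2d3 averaged 129.2 CPM in PWK/PhJ, against 114.0 CPM in the other strains (0.18, adjusted p = 8.09e-06), and 101.7 CPM in CAST/EiJ, against 118.0 CPM in the other strains (-0.21, adjusted p = 7.28e-07).

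The calcium channel beta genes were the most even family. No member passed with a range of at least 1, and their ranges were 0.11 to 0.37. Cacnb2, a beta subunit also central to the heart, had 71.7, 80.2 and 85.7 CPM in PWK/PhJ (lowest, median, highest), against 53.2, 66.6 and 85.9 CPM in the other strains. The ranges overlapped, with a log2 fold change of 0.24 (SE 0.040, adjusted p = 8.34e-07). Cacnb1 ran the other way, with 124.8, 131.9 and 140.8 CPM in PWK/PhJ, against 131.6, 146.6 and 180.8 CPM in the other strains. In PWK/PhJ 4 libraries lay below all others, and the log2 fold change was -0.15 (SE 0.029, adjusted p = 1.17e-05). Cacnb4, mutated in the epileptic lethargic mouse, averaged 159.1 ± 7.83 CPM in NOD/ShiLtJ, against 143.2 CPM in the other strains (0.15, adjusted p = 0.0393), although its test over all strains did not pass. Cacnb3 kept within 203.9 to 268.2 CPM over all 64 libraries.

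In the gamma family the least abundant tested member varied most. Cacng6, a gamma gene placed beside the TARPs Cacng7 and Cacng8 in the genome, had a lowest, median and highest level of 2.78, 3.89 and 4.86 CPM in 129S1/SvImJ, against 0.475, 1.2 and 2.48 CPM in the other strains. All 8 libraries of 129S1/SvImJ lay above all 56 others, with a log2 fold change of 1.67 (SE 0.125, adjusted p = 7.48e-17, edgeR). NOD/ShiLtJ, the next strain, was 1.25 lower (adjusted p = 1.56e-07). At the other end, PWK/PhJ had 0.545, 0.675 and 1.14 CPM, against 0.475, 1.34 and 4.86 CPM elsewhere. The ranges overlapped. The log2 fold change was -1.0 (SE 0.176, adjusted p = 2.31e-06), at the limit of 1, and it fell short of that limit in 21 of 64 fits that each left out 1 library. The neighbours did not share the pattern: Cacng7 averaged 106.2 CPM in 129S1/SvImJ, against 124.5 CPM in the other strains (-0.23, adjusted p = 1.41e-06), and Cacng8 passed no test in that strain.

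The windows of Cacng6 (chr7:3424412-3424711) and Cacng7 (chr7:3332575-3332874) are shown because the genes lie in 1 cluster on the plus strand and differed in opposite directions in 129S1/SvImJ. Capitals again mark CG. Cacng6 held 8 and Cacng7 held 15, and 48.6% and 34.6% of all windows held at least as many.
Cacng6: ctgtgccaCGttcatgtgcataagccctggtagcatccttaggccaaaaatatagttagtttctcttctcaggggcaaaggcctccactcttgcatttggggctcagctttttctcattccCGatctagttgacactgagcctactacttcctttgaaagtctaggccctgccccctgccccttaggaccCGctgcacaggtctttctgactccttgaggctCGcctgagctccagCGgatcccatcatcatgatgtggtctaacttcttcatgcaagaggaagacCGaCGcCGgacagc
Cacng7: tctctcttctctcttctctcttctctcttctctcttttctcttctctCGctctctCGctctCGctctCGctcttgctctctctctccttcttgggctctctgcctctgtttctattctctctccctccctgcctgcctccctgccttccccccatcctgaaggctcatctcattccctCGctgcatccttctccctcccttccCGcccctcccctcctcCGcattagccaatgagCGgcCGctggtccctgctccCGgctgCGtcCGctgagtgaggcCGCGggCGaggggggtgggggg

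Cacng5, a TARP gene with a restricted pattern in the brain, was highest in CAST/EiJ. Its lowest, median and highest levels there were 27.0, 28.2 and 41.4 CPM, against 10.4, 17.5 and 28.4 CPM in the other strains. In CAST/EiJ 3 libraries lay above all others, and the ranges overlapped narrowly. The log2 fold change was 0.83 (SE 0.105, adjusted p = 1.46e-09). C57BL/6J was lowest, with 10.4, 11.6 and 19.1 CPM, against 10.5, 18.8 and 41.4 CPM in the other strains (-0.67, adjusted p = 1.56e-05). Cacng2, the gene of stargazin, had 67.0, 73.8 and 79.1 CPM in PWK/PhJ, against 46.3, 60.3 and 70.3 CPM in the other strains, and 6 PWK/PhJ libraries lay above all others (0.29, adjusted p = 5.53e-11). The antisense gene A730060N03Rik, which shares 5.86% of the exon bases of Cacng2, averaged 9.86 CPM in PWK/PhJ and 2.36 to 6.41 CPM in the other strains. Whether its reads were kept apart from those of Cacng2 where the exons overlap is not known, as the use of strand is not given. Cacng8 averaged 133.0 CPM in PWK/PhJ, against 115.0 CPM in the other strains (0.21, adjusted p = 4.43e-06), and 105.2 CPM in A/J, against 119.0 CPM in the other strains (-0.18, adjusted p = 0.000388). Cacng4, a TARP gene next to Cacng5, was also highest in CAST/EiJ, with 31.2 ± 2.26 CPM, against 25.2 CPM in the other strains (0.31, adjusted p = 3.18e-08). Cacng3, another TARP gene, was the most even gamma gene, with a range of 0.18.

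**Figure D3:**
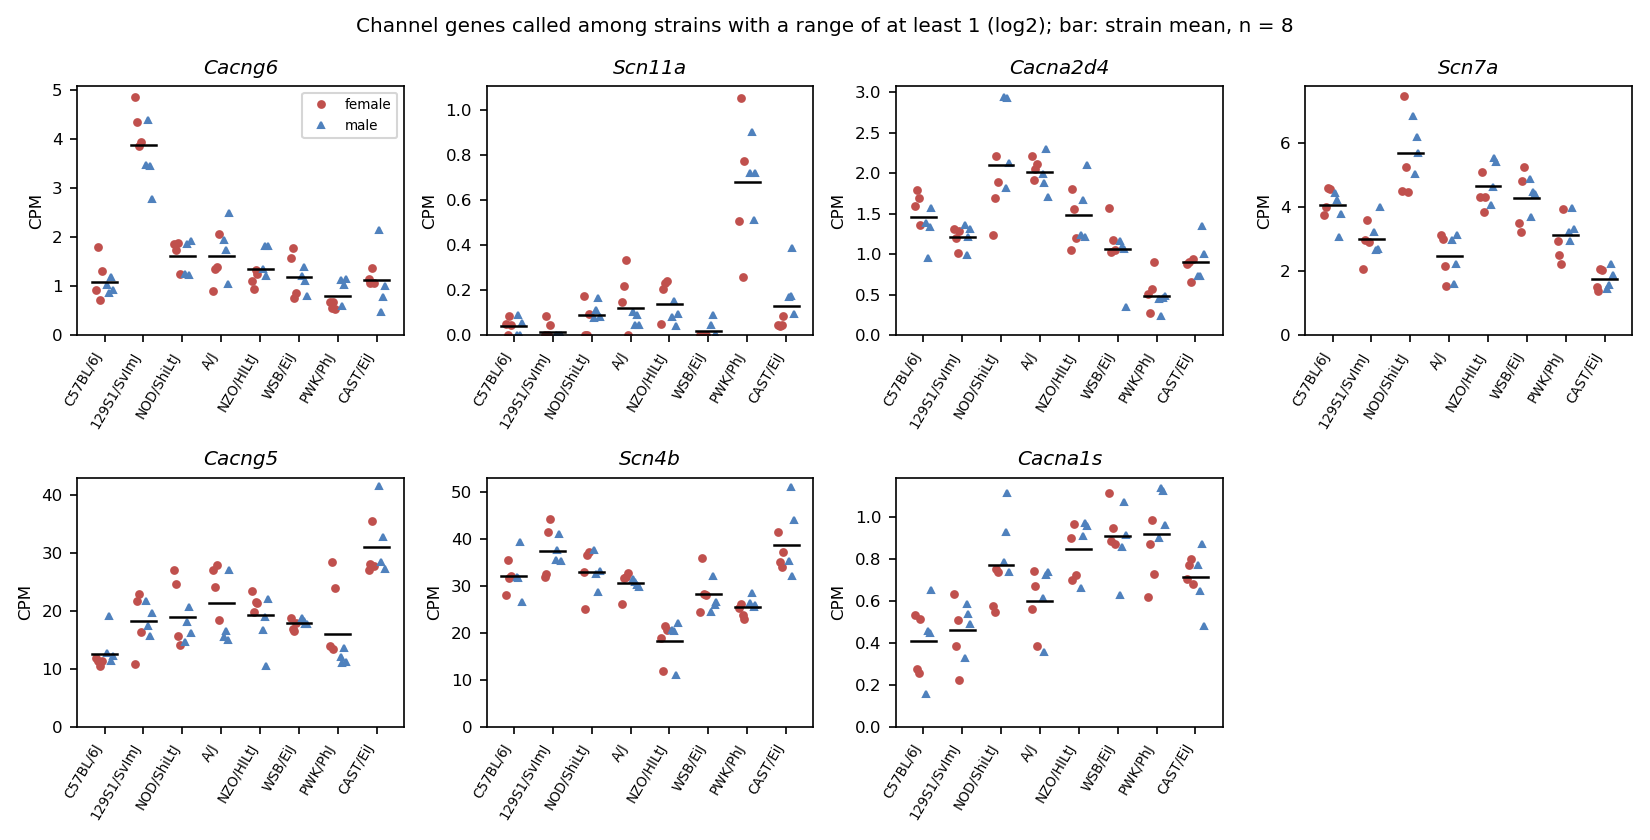
Level in CPM (linear axes from 0) of 7 channel genes whose strain means span at least 1 on the log2 scale, per library (circles female, triangles male) with the strain mean as a bar (n = 8). Cacng6 stands apart in 129S1/SvImJ, Scn11a in PWK/PhJ and Scn4b, at the low end, in NZO/HlLtJ.

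The widest range of strain means among the sodium pores described here was in a gene that is nearly silent in this tissue. Scn11a, a pore of pain-sensing neurons, had 115 counts over the 8 PWK/PhJ libraries, with 5 to 23 in each. In the other strains the sums over 8 libraries ran from 3 counts in 129S1/SvImJ and in WSB/EiJ to 25 in NZO/HlLtJ. Its mean level was 0.681 CPM in PWK/PhJ and 0.0789 CPM in the other strains, 8.62 times as high, and 7 of 8 PWK/PhJ libraries lay above all others. No library of another strain held more than 8 counts, so Scn11a passed the filter (minimum count 10) only through PWK/PhJ and had to be high there among tested genes. Its values are given as a description, with no test. Scn10a, the gene next to it, was too low to test.

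Scn7a, a sodium channel homologue known as a sensor of sodium concentration, was lowest in CAST/EiJ. It had 1.37, 1.71 and 2.22 CPM there (lowest, median, highest), against 1.53, 3.91 and 7.48 CPM in the other strains. In CAST/EiJ 3 libraries lay below all others, and the log2 fold change was -1.10 (SE 0.120, adjusted p = 1.26e-11), or -1.08 when the CAST/EiJ females were left out. NOD/ShiLtJ was highest, with 4.48, 5.48 and 7.48 CPM, against 1.37, 3.23 and 5.54 CPM in the other strains (0.83, adjusted p = 2.06e-10). A/J, next above CAST/EiJ, differed from it by 0.50 (adjusted p = 0.00522). Scn9a, a pore known from sensory and sympathetic neurons, averaged 1.41 CPM in C57BL/6J, against 2.16 CPM in the other strains (-0.61, adjusted p = 0.00309). The antisense gene Gm13629, which shares 1.41% of the exon bases of Scn9a, averaged 1.41 CPM in C57BL/6J and 1.32 to 2.22 CPM in the other strains. Whether its reads were kept apart from those of Scn9a is not known.

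The abundant sodium pores differed by less. Scn8a, which sets the threshold at the axon initial segment, averaged 446.8 ± 49.8 CPM in PWK/PhJ and 373.7 CPM in the other strains (0.26, adjusted p = 0.00179). Scn2a, the pore of excitatory axons, averaged 392.1 ± 32.2 CPM in PWK/PhJ and 337.6 CPM in the other strains (0.22, adjusted p = 0.00313). Scn3a averaged 42.1 ± 7.29 CPM in WSB/EiJ, against 50.3 CPM in the other strains (-0.26, adjusted p = 0.00845). Scn1a, on which the firing of fast-spiking interneurons depends, had another order. It averaged 138.8 ± 14.1 CPM in NOD/ShiLtJ, against 110.2 CPM in the other strains (0.34, adjusted p = 0.000404), and 95.6 ± 9.6 CPM in CAST/EiJ, against 116.4 CPM in the other strains (-0.27, adjusted p = 0.00382).

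Strain made up much of the spread of the sodium beta genes. Strain accounted for 81.2% of the variance of log2 CPM in Scn3b, 80.4% in Scn2b and 73.1% in Scn4b, against a median of 53.1% over the 36 tested members. Scn3b had 417.5, 482.6 and 522.4 CPM in PWK/PhJ (lowest, median, highest), against 227.4, 301.9 and 404.5 CPM in the other strains. All 8 PWK/PhJ libraries lay above all 56 others, with a log2 fold change of 0.63 (SE 0.045, adjusted p = 2.4e-18, edgeR). CAST/EiJ came next, 0.35 lower (adjusted p = 3.92e-06), and NZO/HlLtJ was lowest, with 227.4, 253.6 and 285.3 CPM, against 239.2, 318.9 and 522.4 CPM in the other strains (-0.37, adjusted p = 9.57e-09). Scn2b had 347.7, 359.4 and 374.1 CPM in CAST/EiJ, against 187.3, 273.7 and 333.9 CPM in the other strains. The 8 CAST/EiJ libraries lay above all others (0.43, SE 0.038, adjusted p = 5.72e-15). Scn2b was lowest in 129S1/SvImJ, with 194.2, 220.7 and 235.4 CPM, against 187.3, 278.8 and 374.1 CPM in the other strains (-0.41, adjusted p = 2.56e-12).

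Scn4b, whose protein supports the resurgent current of fast-firing neurons, was lowest in NZO/HlLtJ. It had 11.1, 20.5 and 22.1 CPM there, against 22.9, 31.9 and 51.1 CPM in the other strains. All 8 NZO/HlLtJ libraries lay below all 56 others, with a log2 fold change of -0.80 (SE 0.087, adjusted p = 5.32e-11), which is under the fold limit for a single strain. PWK/PhJ, next above, differed from NZO/HlLtJ by 0.48 (adjusted p = 0.000201). Scn3b, Scn2b and Scn4b were all higher in CAST/EiJ than in the other strains, with log2 fold changes of 0.23 for Scn3b, 0.43 for Scn2b and 0.43 for Scn4b.

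Scn2b (chr9:45117626-45117925) and Scn4b (chr9:45138374-45138673) are next to each other on chromosome 9, both on the plus strand, and their windows are shown because their strain orders differed. The window of Scn2b held 2 CG and that of Scn4b 26, and 85.9% and 16.9% of all windows held at least as many. The motif TATAAA, searched on both strands, was in none of the 6 windows printed, in 2 of 41 windows of members and in 13.6% of all windows.
Scn2b: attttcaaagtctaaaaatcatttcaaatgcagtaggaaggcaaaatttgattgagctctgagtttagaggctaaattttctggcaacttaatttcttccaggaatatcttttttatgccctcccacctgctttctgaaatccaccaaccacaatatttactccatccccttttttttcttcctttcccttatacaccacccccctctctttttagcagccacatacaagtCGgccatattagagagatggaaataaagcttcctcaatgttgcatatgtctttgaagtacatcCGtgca
Scn4b: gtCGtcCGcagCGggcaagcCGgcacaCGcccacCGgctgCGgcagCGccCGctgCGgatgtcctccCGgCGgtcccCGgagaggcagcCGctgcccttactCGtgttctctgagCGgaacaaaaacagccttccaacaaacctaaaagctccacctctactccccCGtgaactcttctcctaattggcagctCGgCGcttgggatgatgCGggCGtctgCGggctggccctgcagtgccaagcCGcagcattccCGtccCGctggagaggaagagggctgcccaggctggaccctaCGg

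Some members moved with markers of thalamus and habenula, regions that lie close to the hippocampus. The summed level of the 11 markers, all of which were tested, was 142.6 to 272.7 CPM in A/J, 195.3 to 254.7 CPM in NZO/HlLtJ, 189.0 to 269.3 CPM in NOD/ShiLtJ, 156.9 to 249.5 CPM in CAST/EiJ, 162.7 to 254.3 CPM in PWK/PhJ, 163.7 to 236.3 CPM in 129S1/SvImJ, 165.2 to 191.8 CPM in WSB/EiJ and 142.0 to 216.7 CPM in C57BL/6J. With the mean log2 level of these markers as a covariate, chosen after seeing the data, 6 of 36 members (16.7%) had a positive slope at an adjusted p below 0.05, against 5.66% of all genes. They included Cacna2d2 with a slope of 2.20, Scn9a with 1.54, Cacng5 with 1.19, Scn7a with 0.83 and Cacng4 with 0.42, in log2 units per log2 unit. Negative slopes were found for 3 members (8.33%), Cacna2d3 and Cacnb3 among them, against 2.36% of all genes. With this covariate the range of Cacng5 was 1.2 (1.31 without it), that of Scn9a 0.64 (0.85) and that of Scn7a 1.45 (1.64). The range of Cacng4 was 0.41 (0.43), and that of Cacna2d2 rose to 0.71 (0.55). Some of these members also moved with the choroid plexus markers when those were the covariate (edgeR). Slopes were positive for 3 of 36 members (8.33%), among them Cacna2d2 (0.11, adjusted p = 0.00255) and Cacng5 (0.075, adjusted p = 0.0113). They were negative for 2 members (5.56%), Cacnb3 (-0.022, adjusted p = 0.00277) and Cacna2d3 (-0.023, adjusted p = 0.011). The shares of all genes are not given for this covariate, so these counts cannot be set against a background. Those of Scn9a, Scn7a and Cacng4 did not pass. The part of each tissue was not tested. Cacna2d2, an alpha2delta gene strong in cerebellum and thalamus, ran from 12.3 to 60.02 CPM over the 64 libraries.

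**Figure D4:**
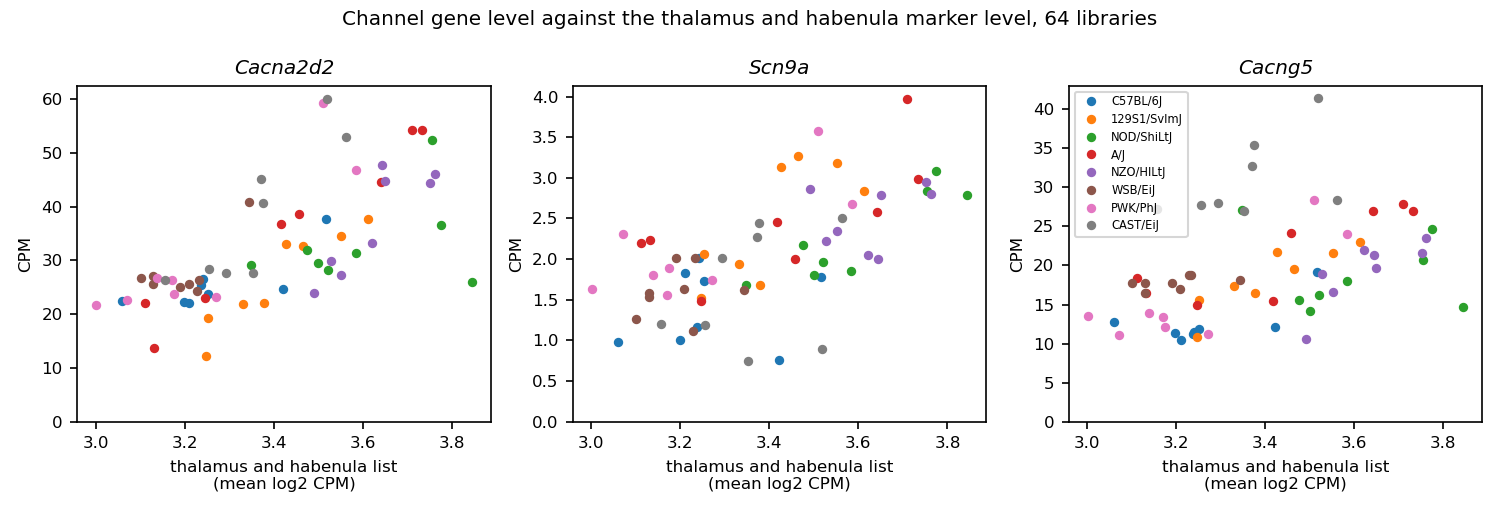
Level in CPM of Cacna2d2, Scn9a and Cacng5 against the mean log2 CPM of 11 thalamus and habenula markers, 1 point per library coloured by strain (64 libraries). Higher Cacna2d2 levels go with higher marker levels within several strains, while the CAST/EiJ points of Cacng5, at 27.0 to 41.4 CPM, lie mostly above the rest.

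Many members moved with the long-gene level of the library. With that level as a covariate, also chosen after seeing the data, 21 of 36 members (58.3%) had a positive slope, against 26.0% of all genes, and 3 (8.33%) had a negative one, against 26.7%. The slope was 1.52 for Cacna1e, 1.44 for Cacna1c and 1.19 for Scn2a, and it was -0.21 for Cacng7 and -0.18 for Cacnb3, in log2 units per log2 unit. Scn2a had 209.9 CPM in A/J male 2, 208.3 in 129S1/SvImJ female 1, 210.7 in WSB/EiJ female 1 and 246.1 in C57BL/6J male 4. With this covariate 20 members were higher in PWK/PhJ, 18 of the 19 among them, against 31.3% of all genes, and the members' median log2 fold change in PWK/PhJ was 0.08. In A/J 17 were lower with the covariate, all 13 among them, against 18.9% of all genes. Leaving out the 4 libraries gave 21 members higher in PWK/PhJ and 12 lower in A/J. The shares of all genes are not given for that refit, so these counts have no background.

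**Figure D5:**
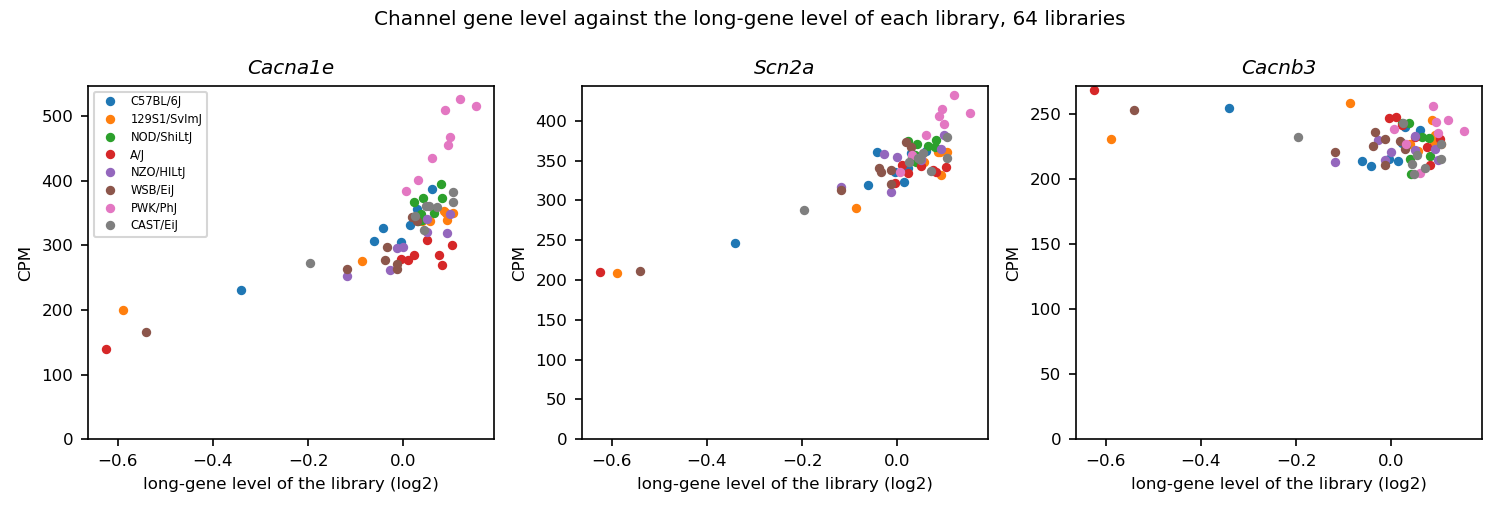
Level in CPM of Cacna1e, Scn2a and Cacnb3 against the long-gene level of each library (log2), 1 point per library coloured by strain. The 4 libraries below -0.3 are low in Cacna1e and Scn2a, and 7 of 8 PWK/PhJ points of Cacna1e lie above all points of the other strains.

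No difference between females and males passed the test. None of the 36 tested members passed between female and male (edgeR, adjusted p below 0.05, 0.167% of all genes called), 1 member, Cacnb3 (2.78%), had an unadjusted p below 0.05, against 5.3% of all genes, and DESeq2 also called 0 members, against 0.247% of all genes. Cacnb3 averaged 225.4 CPM in females and 232.2 CPM in males, with a log2 difference of -0.04 (SE 0.020, adjusted p = 0.921). The interaction of strain and sex gave 0 calls among members, against 0.046% of all genes (edgeR). At an unadjusted p below 0.05 there were 6 members (16.7%), against 10.7% of all genes, among them Cacna2d2, Cacnb1, Cacnb3 and Cacng5. The 6 also include Scn11a, which passed the count filter only through PWK/PhJ and is no evidence of an interaction.

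Partners of the channels were described from a pair of lists that exclude the members. Of 44 tested genes of proteins that bind, anchor or regulate these channels, 39 differed among strains, against 89.2% of all genes, and 3 (6.82%) had a range of at least 1, against 26.3% of all genes. These were Stac, an adaptor of L-type channels, and Rem1 and Gem, small GTPases that inhibit calcium channels. Gem averaged 2.54 ± 0.37 CPM in A/J and 1.21 to 1.87 CPM in the other strains, and Stac averaged 7.26 ± 1.13 CPM in WSB/EiJ and 3.58 ± 0.86 CPM in CAST/EiJ. In PWK/PhJ 13 partners were higher and 14 lower, against 28.9% and 28.8% of all genes. Of 19 AMPA receptor subunits and other auxiliary genes, 18 differed among strains, against 89.2% of all genes, and 1 (5.26%) had a range of at least 1, against 26.3%. It was Shisa7, an auxiliary protein of AMPA and GABA-A receptors, which averaged 328.5 ± 26.8 CPM in PWK/PhJ and 160.7 to 192.6 CPM in the other strains. In PWK/PhJ 13 of these 19 genes were higher and 2 lower, against 28.9% and 28.8% of all genes.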

How the data were processed

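Bulk RNA-seq of mouse hippocampus was analysed in 64 libraries. The authors deposited raw counts per Ensembl gene (release 105, per the name of the deposited table), whole numbers with no normalization; per the submitters' processing notes, GRCm39 was used. The aligner, the counting tool, the use of strand and whether reads of all strains were aligned to the C57BL/6J reference are not given in the sources used here. If they were, reads of strains far from that reference can be lost. If strand was not used, overlapping antisense genes cannot be separated.

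Symbols came from GENCODE M21 (GRCm38), which matched 32146 of 32227 identifiers. Counts were tested with edgeR 4.0.16 in R 4.3.3: filterByExpr over 16 groups of strain and sex (minimum count 10, minimum total 15; 17382 genes, 53.9%), TMM scaling, a robust quasi-likelihood fit with 48 residual degrees of freedom, and Benjamini-Hochberg adjustment over all genes tested, with a threshold of 0.05. The range is that of strain means of log2 CPM (prior count 2). Fold minimum 1 is on the log2 scale. The script was tested on simulated data. Alternatives were DESeq2 1.42.0, other filters and scalings, covariates, and leaving out libraries. Members called with a range of at least 1, and the 2 calcium beta genes of largest range, are given in full, the other members by family. Results of 2 members are not reported here, though counts over all members include them. The members, the lists and the tests were chosen with earlier results of these data known. The deposited columns were matched to samples by name. In 14 of them (all WSB/EiJ, the CAST/EiJ females and 2 NZO/HlLtJ males) the final number lacks a digit that the sample title has, and the match rests on the other parts of the name. Replicates were numbered in accession order, and these numbers only name samples.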

Additional observations from a re-analysis of the deposited data

Results flagged for a closer look

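A set of 7 members with a range of at least 1 was searched for single libraries far from the other 7 of their strain, 56 groups in all, of which chance flags about 1 in 20; 4 were found. Cacng5 had 19.13 CPM in C57BL/6J male 2, where the others had 10.4 to 12.8. Cacna2d4 had 0.354 CPM in WSB/EiJ male 4, against 1.02 to 1.57 in the others. Scn11a had 0.386 CPM in CAST/EiJ male 3, against 0.0428 to 0.173. Scn4b had 26.15 CPM in A/J female 1, against 29.7 to 32.7.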

How the results depend on the processing

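The 8 members with a range of at least 1 were the same with DESeq2 size factors, in DESeq2, with the choroid plexus or long-gene covariate and without libraries that stand apart or are low in long genes. Among the 31 members averaging 50 counts or more, 4 passed among strains and 1 in a single strain (main count 5). Without CAST/EiJ and PWK/PhJ, 5 passed among strains, 1 in a single strain and 7 were lower in A/J at any fold. With no count filter 8 passed in a single strain. Fold minimums of 0, 0.5 and 2 gave 33, 15 and 2 members among strains and 113, 22 and 1 calls in a single strain, and no fold minimum gave 417 calls over pairs of strains instead of 46. The libraries that stand apart, by a low mean correlation with the others of their group, were 129S1/SvImJ female 1, A/J male 2 and A/J male 4. Without these libraries, 7 members were lower in A/J. The shares of all genes are not given for the refits of this section. Leaving out each library in turn gave 7 to 8 members among strains, 4 to 7 in a single strain, 16 to 21 higher in PWK/PhJ and 6 to 16 lower in A/J, and 0 by sex and by interaction. Alternatives moved the log2 fold change of Cacng6 in PWK/PhJ between -1.04 and -0.97, and 6 of 10 put it under 1. With the thalamus covariate and in the additive model 7 of the 8 members passed. No paired analysis was possible because the labels carry no replicate numbers. The thalamus and long-gene covariates, the fits without the libraries low in long genes and the counts for PWK/PhJ and A/J at any fold were chosen after seeing the data. Depth limits Scn11a, Cacna1s, Cacna2d4 and Cacng6, with at most 115 counts in a library.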
